A study of Mus musculus with 6 samples.

Results

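The 10 genes described here are regulators of the naive state and of quiescence in T cells, namely Tcf7, Lef1, Foxo1, Foxo3, Foxp1, Bach2, Btg1, Btg2, Tob1 and Tsc22d3. They were taken by name from a table of 23420 rows, and all 10 were found there. Gene expression had been measured by RNA sequencing in 6 libraries of induced T (iT) cells, 3 of CD4 single-positive (CD4SP) and 3 of CD8 single-positive (CD8SP) cells, each made from 1000 sorted cells. Both populations shared the same history. They came from spleens of irradiated B-NDG mice, a NOD strain that carries Prkdc Scid and lacks Il2rg and so makes no T, B or NK cells of its own. These recipients had received blood progenitors grown in culture from the iR9 line of pluripotent stem cells, with a Runx1-p2a-Hoxa9 cassette in the Rosa26 locus, which doxycycline switches on. All libraries therefore carry the cassette, and no library of natural T cells was analysed here. The sort divided the cells by CD4 and CD8, and no naive gate was stated. The study calls the columns of its expression plot biological replicates, but the labels do not say whether the 3 libraries of a population came from separate mice, so the p-values measure the spread between these samples.

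A naive T cell stays small and out of the cell cycle until its receptor meets antigen, and this quiescence is an actively maintained state. TCF1 (encoded by Tcf7) and LEF1 are HMG-box transcription factors that hold T cell identity and the naive programme. FOXO1 and FOXO3 are forkhead factors that stay in the nucleus while PI3K and AKT signalling is low, where FOXO1 drives genes of homing and survival, and FOXP1 competes at some of the same sites. BACH2 represses effector genes at AP-1 sites. BTG1, BTG2 and TOB1 belong to the antiproliferative BTG/TOB family, which brings the CCR4-NOT deadenylase to mRNA and so shortens poly(A) tails. Tsc22d3 encodes GILZ, which glucocorticoids and FOXO factors induce and which restrains NF-kB and AP-1.

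The members whose difference between the populations passed the test were Tob1, Btg2, Foxo1 and Btg1. The 250 bases upstream of their start sites are therefore shown, 5′ to 3′ on the strand of the gene, from RefSeq on GRCm38.p6, the assembly of mm10. Capitals mark matches on either strand to 8 motifs, which were the FOXO core GTAAACA, the TCF/LEF sites CTTTGAA and CTTTGTT, the ETS core CCGGAA, the E-box CACGTG, the TATA box TATAAAA, the cyclic AMP response element TGACGTCA and the CCAAT box. The last 3 were added after the windows had been read.
Tob1, chr11:94211204-94211453, plus strand: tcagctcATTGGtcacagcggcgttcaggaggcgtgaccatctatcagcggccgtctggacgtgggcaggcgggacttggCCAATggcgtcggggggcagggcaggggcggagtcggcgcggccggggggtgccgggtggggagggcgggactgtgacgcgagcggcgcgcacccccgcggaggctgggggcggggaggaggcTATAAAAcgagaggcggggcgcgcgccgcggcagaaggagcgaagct
Btg1, chr10:96616751-96617000, plus strand: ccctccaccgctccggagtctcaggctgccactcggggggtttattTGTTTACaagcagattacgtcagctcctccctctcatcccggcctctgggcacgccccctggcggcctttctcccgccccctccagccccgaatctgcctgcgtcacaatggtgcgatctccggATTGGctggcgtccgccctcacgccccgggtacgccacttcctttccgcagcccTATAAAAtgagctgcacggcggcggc
Btg2, chr1:134079156-134079405, minus strand: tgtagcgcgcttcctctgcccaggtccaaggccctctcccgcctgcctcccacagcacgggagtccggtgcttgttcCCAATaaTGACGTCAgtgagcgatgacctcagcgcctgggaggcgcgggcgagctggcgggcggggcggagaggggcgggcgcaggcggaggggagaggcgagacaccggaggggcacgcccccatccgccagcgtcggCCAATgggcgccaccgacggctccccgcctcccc
Foxo1, chr3:52268087-52268336, plus strand: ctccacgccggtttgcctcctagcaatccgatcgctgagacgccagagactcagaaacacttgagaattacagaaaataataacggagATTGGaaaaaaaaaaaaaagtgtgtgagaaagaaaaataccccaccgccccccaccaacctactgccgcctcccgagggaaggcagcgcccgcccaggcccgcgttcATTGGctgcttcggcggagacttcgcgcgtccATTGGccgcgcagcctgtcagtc

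The Tob1 and Btg1 windows each hold a TATA box, which starts 47 and 26 bases before the start site, respectively. This motif was found in 5.48% of the 32851 promoter windows of 300 bases in the table. Btg1 alone of these 4 genes has a FOXO core, on the reverse strand at 204 bases before the start site, and 3.65% of all windows hold that motif. Btg2 alone of the 4 has the cyclic AMP response element, at 166 bases before the start site, against 1.79% of all windows. All 4 windows hold a CCAAT box, but over all 18 start-site windows of the 10 genes only 6 do, beside 37.4% of all windows. The FOXO core was found in 2 of the 18, those of Btg1 and Tcf7. The TCF/LEF sites were found only in Foxp1, the E-box only in Lef1, and the ETS core in Bach2 and Tcf7. These shares are 5.14% and 5.85% of all windows for the TCF/LEF sites, 7.15% for the E-box and 14.9% for the ETS core. Of the 18 windows, 13 had a GC content above the median of all windows (52.67%). A match is a description of the sequence and not a measured binding site.

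The values are normalised transcript abundances (TPM), in which the reads of a gene are divided by its length and each library is scaled to a fixed total, so that levels can be compared between genes. Sequencing depth cannot be read from them. Some rows differed many-fold between libraries of 1 population, which limits what a single value can show. Ets1 and Tle3, named after their values were seen, are examples. In the CD4SP libraries Ets1 was at 230, 3.23 and 2.94 TPM and Tle3 at 16.8, 2.01 and 2.32 TPM. In the CD8SP libraries Ets1 was at 101, 108 and 105 TPM and Tle3 at 10.9, 10.6 and 11.3 TPM. The reason was not tested. Sorting was checked by Cd4, at 279 to 331 TPM in CD4SP libraries and at most 0.104 TPM in CD8SP libraries, and by Cd8a, at most 2.93 TPM in CD4SP and at least 1038 TPM in CD8SP libraries. Ribosomal protein transcripts took 24.1% to 28.8% of TPM in CD4SP and 32.2% to 36.0% in CD8SP libraries, and the populations did not overlap. The part of this share in the differences was not tested, but values after rescaling are given below. Of 6 regulatory T cell markers, 5 were called higher in CD4SP (over 2-fold, with a limma adjusted p under 0.05), and their summed level was 1839 to 2206 TPM in CD4SP and 364 to 426 TPM in CD8SP libraries. Foxp3, which defines these cells, had 142, 6.56 and 167 TPM in the CD4SP libraries, so that replicate 2 stood apart, and 7.48, 7.48 and 10.05 TPM in the CD8SP libraries. The other 5 markers showed no such drop in CD4SP replicate 2. In the CD4SP libraries Il2ra was at 95.7, 92.0 and 82.1 TPM, Ikzf2 at 44.9, 35.6 and 48.3 TPM and Ctla4 at 866, 814 and 937 TPM. Tnfrsf18 was at 835, 712 and 769 TPM there, and Itgae at 222, 178 and 176 TPM. Of 6 NK cell markers, Ncr1, Klra8 and Klra4 were listed at 0 in all 6 libraries and the other 3 were called higher in CD8SP, with sums of 9.88 to 12.0 TPM in CD4SP and 64.4 to 71.0 TPM in CD8SP libraries. The B cell genes Ms4a1 and Pax5 were listed at 0 in every library, and the 6 B cell markers summed to 17.6 to 23.9 TPM in CD4SP and 27.4 to 29.3 TPM in CD8SP libraries. Of the 7 myeloid markers S100a8, S100a9 and Mpo were listed at 0 throughout, and the sum was 17.1 to 31.3 TPM in CD4SP and 3.64 to 9.09 TPM in CD8SP libraries, with Lyz2 at 17.1 to 30.9 TPM in CD4SP and 3.64 to 8.33 TPM in CD8SP libraries. The part of these cell types in the differences below was not tested, and in bulk samples fewer cells of a type cannot be told apart from less RNA per cell.

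Across the 10 genes the levels spanned from 432 TPM to a listed 0. Btg1 was the most abundant in both populations, with a mean of 408 TPM in CD4SP and 275 TPM in CD8SP libraries, and its mean over all 6 libraries was above that of 96.3% of the 10476 tested genes. Tcf7 came next, followed by Tsc22d3, Btg2 and Foxo1, and these 5 lay above 82.8% or more of the tested genes. In CD4SP libraries the ranges of Tsc22d3 and Btg2 overlapped, whereas every other step among these 5 was free of overlap in both populations. Foxp1 was near the middle of all tested genes (47.8% lay below it). Tob1, Lef1 and Bach2 lay lower, with 41.3%, 26.6% and 17.7% of tested genes below them. The order changed between the populations at these lower levels. In CD4SP libraries it ran Tob1, Foxp1, Bach2 and Lef1, where the ranges of Tob1 and Foxp1 overlapped and so did those of Bach2 and Lef1. In CD8SP libraries it ran Foxp1, Lef1, Tob1 and Bach2, where the ranges of Lef1 and Tob1 overlapped. Foxo3 was the lowest member in both and never reached 1 TPM.

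**Figure D1:**
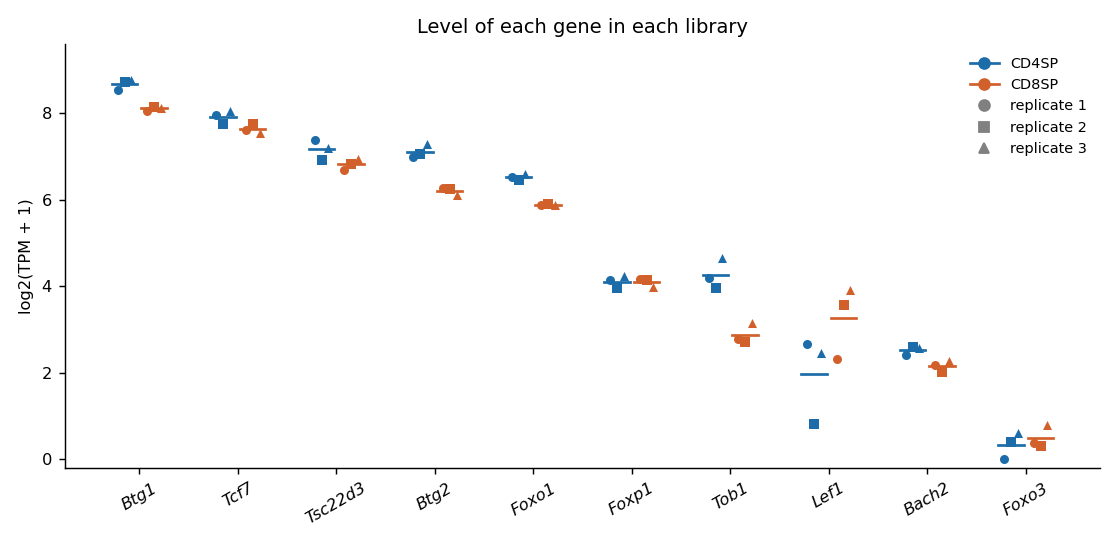
Level of each of the 10 genes in each library, on the y axis as log2(TPM + 1), ordered on the x axis by the mean over 6 libraries. Points are libraries, with a shape for each replicate number, and horizontal lines are means of 3 libraries. Tob1, Btg1, Btg2 and Foxo1 stand higher in all CD4SP than in all CD8SP libraries, whereas Foxp1 and Lef1 overlap and CD4SP replicate 2 is the lowest for Lef1.

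Whether these regulators differ between the CD4SP and CD8SP iT cells was asked with limma on log2(TPM + 1), with p adjusted over the 10476 genes that reached 1 TPM in 3 or more libraries. A gene passed the test at an adjusted p under 0.05 and was called when its difference was also over 2-fold, and positive log2 fold changes mean higher in CD4SP. Of the 10 members 9 passed the filter on low values and Foxo3 did not. Called was 1 of the 9, Tob1, against a background of 9.73% of all tested genes called in either direction and 7.92% called higher in CD4SP. The test alone was passed by 4 of the 9, all higher in CD4SP, against 20.8% of all tested genes in either direction and 17.6% higher in CD4SP. The 3 CD4SP values lay above the 3 CD8SP values for 6 of the 9, against 36.6% of all tested genes, and the reverse held for 0 of the 9, against 6.61%. Most genes were shifted the same way, as the log2 fold changes of the 10476 genes had a median of 0.28, so differences are also given relative to that median. The median over the 9 members was 0.37. Each value was also recomputed after median-of-ratios rescaling, which sets the typical gene equal between libraries, and after quantile normalization, which gives all libraries the same distribution of values.

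The BTG/TOB family held 3 of the 4 genes that passed the test. Tob1, an inhibitor of proliferation (ENSMUSG00000037573.5, chr11:94211454-94215495, plus strand, protein coding), was at 17.3, 14.5 and 23.9 TPM in the CD4SP libraries, against 5.86, 5.56 and 7.84 TPM in the CD8SP libraries. Its lowest CD4SP value was well above its highest CD8SP value. The CD4SP mean was 1.38 higher in log2 (SE 0.24, limma adjusted p 0.00556), or 1.10 above the median of all genes, and the ratio of mean TPM was 2.89. It stayed called under all 15 alternative settings, with log2 fold changes from 1.03 to 1.54.

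Btg2, which p53 and growth signals induce (ENSMUSG00000020423.6, chr1:134075170-134079120, minus strand), was at 126, 132 and 156 TPM in the CD4SP libraries, against 75.9, 74.4 and 67.7 TPM in the CD8SP libraries. The populations did not overlap, and the spread within each was small beside the gap. The CD4SP mean was 0.91 higher in log2 (SE 0.13, limma adjusted p 0.00264), which is 0.62 above the median of all genes and under the 2-fold limit. Btg1, the closest relative of Btg2 (ENSMUSG00000036478.8, chr10:96617006-96622809, plus strand), was at 368, 423 and 432 TPM in the CD4SP libraries, against 266, 282 and 278 TPM in the CD8SP libraries. Here too all CD4SP values were the higher ones, by a smaller margin. The CD4SP mean was 0.56 higher in log2 (SE 0.11, limma adjusted p 0.00911), or 0.28 above the median of all genes. It missed the threshold without CD8SP replicate 1 (limma adjusted p 0.0556) and after median-of-ratios rescaling (difference of 0.26 in log2, limma adjusted p 0.232). Another annotated gene, Gm14519, matches Btg1 at 98.7% over 312 nt and has no row of its own, so reads from it would not be told apart.

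Other genes of that family, at levels near that of Tob1, were also higher in CD4SP libraries. Btg3 was at 22.9, 26.0 and 32.1 TPM in the CD4SP libraries, against 15.9, 13.6 and 14.1 TPM in the CD8SP libraries (difference of 0.84 in log2, limma adjusted p 0.014). Tob2 was at 17.3, 20.9 and 18.2 TPM in the CD4SP libraries, against 8.66, 10.4 and 11.1 TPM in the CD8SP libraries (difference of 0.85 in log2, limma adjusted p 0.014). Neither reached the 2-fold limit, and after median-of-ratios rescaling neither passed the test (limma adjusted p 0.0654 and 0.0994). Btg4 was listed at 0 in all libraries but CD4SP replicate 2, where it was at 0.464 TPM.

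Among the forkhead genes, Foxo1 was abundant and Foxo3 was scarcely listed. Foxo1, the main FOXO factor of T cells (ENSMUSG00000044167.6, chr3:52268336-52353221, plus strand), was at 91.7, 86.8 and 95.8 TPM in the CD4SP libraries, against 58.1, 58.5 and 57.4 TPM in the CD8SP libraries. The 3 CD8SP values lay close together (58.0 ± 0.571 TPM, SD, n = 3), and every CD4SP value was far above them. The CD4SP mean was 0.65 higher in log2 (SE 0.12, limma adjusted p 0.0068), or 0.36 above the median of all genes. After median-of-ratios rescaling it was 0.35 and missed the threshold (limma adjusted p 0.0535). An antisense gene, Gm20402, overlaps 674 nt of its exons and has no row, and use of strand in counting was not stated.

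Foxo3, which shares many targets with Foxo1 (ENSMUSG00000048756.11, chr10:42181841-42276755, minus strand), was listed at 0 in CD4SP replicate 1 and at 0.317 and 0.523 TPM in the other CD4SP libraries. The 3 CD8SP values were 0.294, 0.226 and 0.734 TPM. These ranges overlapped and lay under the filter on low values. Foxo4 was at 9.08, 10.9 and 10.5 TPM in the CD4SP libraries, against 9.30, 7.64 and 6.29 TPM in the CD8SP libraries (limma adjusted p 0.24), and Foxo6 was listed at 0 in all 6. Of the FOXO family, then, Foxo1 had the highest level in every library, with Foxo4 second.

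Foxp1, which competes with FOXO1 for forkhead sites (ENSMUSG00000030067.17, chr6:98925338-99522721, minus strand), was at 16.6, 14.5 and 17.8 TPM in the CD4SP libraries, against 17.0, 16.7 and 14.8 TPM in the CD8SP libraries. The values were interleaved. Its log2 fold change was 0.0099 (limma adjusted p 0.971), with a 95% confidence interval from -0.38 to 0.40, which leaves room for a difference in either direction. Relative to the median of all genes it was -0.27, and its sign turned after median-of-ratios rescaling, quantile normalization and the removal of ribosomal protein genes. Gm20696, an annotated coding gene that shares 300 nt of exon with Foxp1 on the same strand, has no row of its own. Foxp4 was at 0.824 to 2.61 TPM over the 6 libraries (limma adjusted p 0.85), and Foxp2 was listed at 0 in all but CD4SP replicate 2, at 0.0495 TPM.

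The HMG-box pair was far apart in level. Tcf7 (ENSMUSG00000000782.15, chr11:52252371-52283014, minus strand) was at 248, 216 and 263 TPM in the CD4SP libraries, against 194, 213 and 185 TPM in the CD8SP libraries. CD4SP replicate 2 and CD8SP replicate 2 nearly met. The difference of 0.29 in log2 (SE 0.12, limma adjusted p 0.117) was only 0.01 above the median of all genes, and it turned to -0.011 after median-of-ratios rescaling (limma adjusted p 0.953). Without CD4SP replicate 2 it passed the test (difference of 0.37 in log2, limma adjusted p 0.0322).

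Lef1 (ENSMUSG00000027985.14, chr3:131110471-131224356, plus strand) varied most between replicates among the 9 tested members, with a coefficient of variation of 69.3% in CD4SP libraries. It was at 5.30, 0.742 and 4.52 TPM in the CD4SP libraries, against 4.01, 10.8 and 14.0 TPM in the CD8SP libraries. CD8SP replicate 1 lay below 2 of the 3 CD4SP libraries, and CD4SP replicate 2 was the lowest. The log2 fold change came to -1.29 (SE 0.56, limma adjusted p 0.132), with a 95% confidence interval from -2.57 to -0.012, and -1.57 relative to the median of all genes. It was -1.55 after median-of-ratios rescaling and -1.62 after quantile normalization. Lef1 was the only one of the 9 tested members with a negative value, and it was negative under all 15 alternatives, with limma adjusted p from 0.0705 to 0.348. Without CD4SP replicate 2 it was -0.70 (limma adjusted p 0.258), so that library set much of its size. The antisense gene Gm43352 overlaps 1208 nt of Lef1 exons and has no row. The other genes of the family were low, with Tcf7l1 at 0.361 to 3.52 TPM (limma adjusted p 0.363) and Tcf7l2 at no more than 0.195 TPM.

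Bach2, a repressor of effector genes (ENSMUSG00000040270.16, chr4:32238804-32586108, plus strand), was at 4.30, 5.05 and 4.97 TPM in the CD4SP libraries, against 3.49, 3.07 and 3.83 TPM in the CD8SP libraries. The populations did not overlap, but the gap between them was narrow. The CD4SP mean was 0.37 higher in log2 (SE 0.22, limma adjusted p 0.25), or 0.09 above the median of all genes, and adding 1 TPM understates the fold change of so low a gene. The antisense gene Bach2os overlaps 537 nt of its exons and has no row. Under quantile normalization the Bach2 difference was -0.00032. Its relative Bach1 was at 2.43 to 4.03 TPM (limma adjusted p 0.534).

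Tsc22d3 (ENSMUSG00000031431.13, chrX:140539528-140600659, minus strand) was at 165, 120.2 and 146 TPM in the CD4SP libraries, against 102, 112 and 122 TPM in the CD8SP libraries. CD4SP replicate 2 fell inside the CD8SP range. The CD4SP mean was 0.34 higher in log2 (SE 0.15, limma adjusted p 0.127), or 0.06 above the median of all genes, and without CD4SP replicate 2 it was 0.47 (limma adjusted p 0.0276). Among its relatives, Tsc22d2 was called, at 7.18, 8.31 and 7.34 TPM in the CD4SP libraries, against 2.83, 2.76 and 2.89 TPM in the CD8SP libraries (difference of 1.17 in log2, limma adjusted p 0.00634). After median-of-ratios rescaling it was 0.92 (limma adjusted p 0.0227), which is under the 2-fold limit. Tsc22d4 passed the test at a smaller size (difference of 0.65 in log2, limma adjusted p 0.0451) but not after that rescaling (limma adjusted p 0.248), and Tsc22d1 did not (limma adjusted p 0.277).

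**Figure D2:**
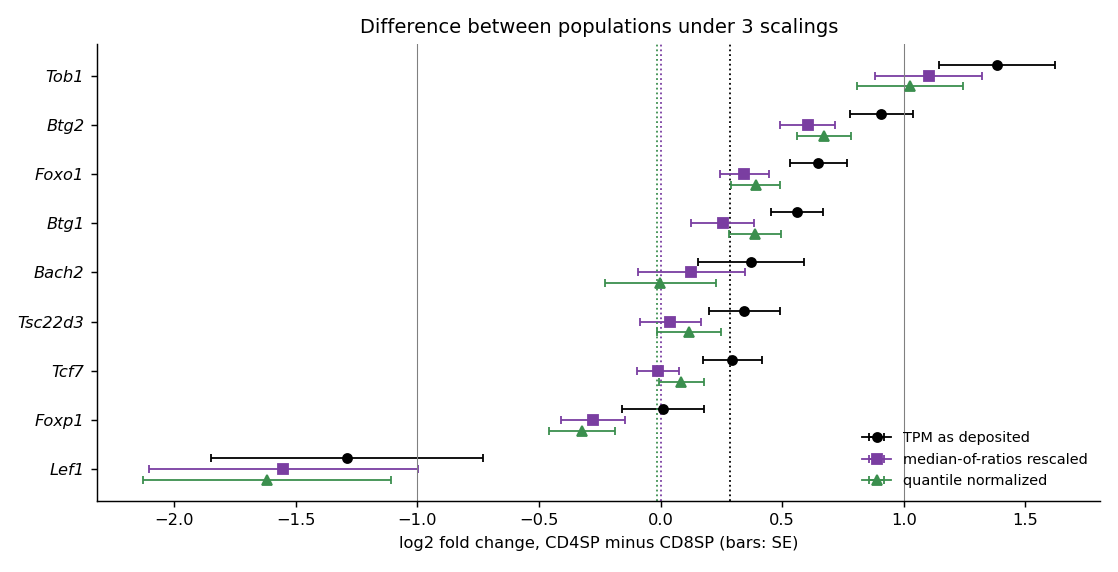
Log2 fold change of the 9 tested members (x axis, CD4SP minus CD8SP; bars are SE) with TPM as deposited and after median-of-ratios rescaling or quantile normalization. Dotted lines are the medians of all tested genes under each scaling (0.28, 0.0013 and -0.015) and grey lines mark 2-fold. Tob1 stays past 2-fold in all 3, while Tcf7, Tsc22d3 and Bach2 lie near each median and Foxp1 falls below it.

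Ratios of members within a library do not depend on how that library was scaled, apart from the 1 TPM added, and 5 pairs were compared. The log2 ratio of Btg1 to Tob1 was 4.33, 4.77 and 4.12 in CD4SP and 5.28, 5.43 and 4.98 in CD8SP libraries, a difference of -0.82. Relative to Btg1, Tob1 was thus more abundant in every CD4SP library. The log2 ratio of Btg1 to Btg2 was 1.54, 1.68 and 1.46 in CD4SP and 1.80, 1.91 and 2.02 in CD8SP libraries, a difference of -0.35, so Btg2 too was more abundant relative to Btg1 in CD4SP libraries.

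For Foxo1 against Foxp1 the log2 ratio was 2.40, 2.50 and 2.37 in CD4SP and 1.71, 1.75 and 1.89 in CD8SP libraries, a difference of 0.64, with means of 2.42 ± 0.071 (SD, n = 3) and 1.78 ± 0.092 (SD, n = 3). This was the pair with the smallest spread within populations. The Tcf7 to Lef1 log2 ratio was 5.30, 6.96 and 5.58 in CD4SP and 5.28, 4.18 and 3.63 in CD8SP libraries, a difference of 1.58 that fell to 1.08 without CD4SP replicate 2. The Foxo1 to Foxo3 log2 ratio was 6.54, 6.06 and 5.99 in CD4SP and 5.51, 5.60 and 5.07 in CD8SP libraries, a difference of 0.80, but Foxo3 is so low that the added 1 TPM sets most of its value, and with 0.1 TPM added the difference was 1.34. With 1 TPM added no pair overlapped between populations, and each of the 5 had a p of 0.1 by an exact two-sided permutation test (0.1 also after adjustment over the 5 pairs), the smallest that 3 libraries against 3 can give. With 0.1 TPM added the populations overlapped for Tcf7 to Lef1 and for Foxo1 to Foxo3 (exact two-sided permutation p 0.2 for each), and the other 3 pairs stayed apart.

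**Figure D3:**
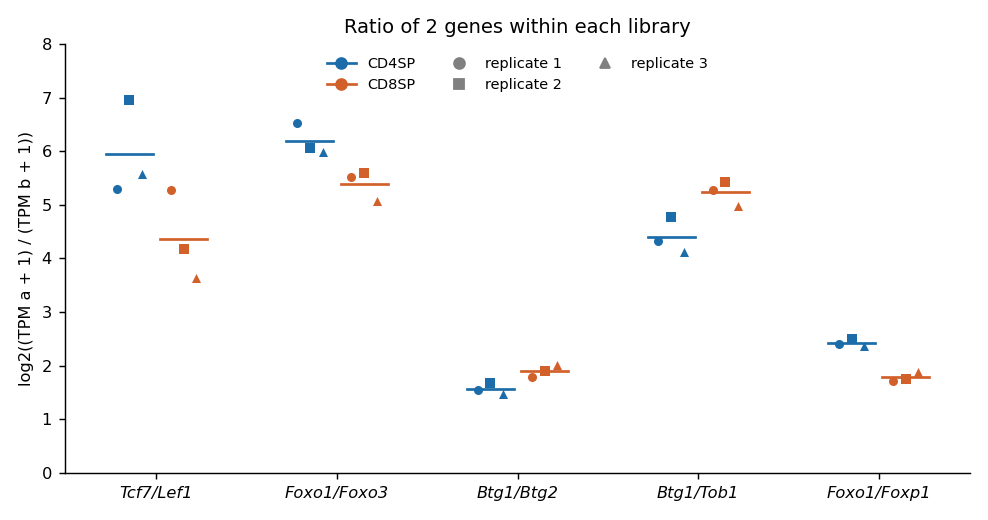
Log2 ratio of the TPM of 2 members, each with 1 TPM added, within each library (y axis) for 5 pairs (x axis). Points are libraries, with a shape for each replicate number, and lines are means of 3 libraries. The Foxo1 to Foxp1 ratios form tight groups 0.64 apart, whereas the Tcf7 to Lef1 ratios of CD4SP replicate 1 (5.30) and CD8SP replicate 1 (5.28) nearly touch, and cross with 0.1 TPM added.

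The genes around these regulators were then read from 8 lists of partners, targets and upstream signals. Like the members, these lists were chosen with earlier results of these data known, so their counts and medians are descriptions only. The lists held 111 genes that are not members, of which 100 were tested and 12 were called, all higher in CD4SP. This is 12% against the 9.73% of all tested genes, and their median log2 fold change was 0.38 beside 0.28 for all. After median-of-ratios rescaling 11 were called, of which 8 were among the 12 and 3 were higher in CD8SP. Among the genes named below, Klf2, Inpp5d and Cnot10 were past the test as deposited but not after that rescaling (limma adjusted p 0.604, 0.373 and 0.328), and others are given with their list.

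Of 15 tested FOXO targets, 8 did not pass the test, 4 passed it higher in CD4SP and 3 higher in CD8SP. Over all tested genes 17.6% passed it higher in CD4SP and 3.23% higher in CD8SP. Over the 15 targets the median log2 fold change was 0.18. Trib2, which encodes a pseudokinase, was called, at 80.8, 78.7 and 87.3 TPM in the CD4SP libraries, against 16.7, 18.0 and 13.6 TPM in the CD8SP libraries (difference of 2.29 in log2, limma adjusted p 5.41e-05, and 1.99 after median-of-ratios rescaling). The most abundant targets were Il7r, the IL-7 receptor chain, at 392, 338 and 434 TPM in the CD4SP libraries, against 316, 342 and 271 TPM in the CD8SP libraries (limma adjusted p 0.124), and Klf2, which drives lymphocyte recirculation. Klf2 was at 315, 312 and 368 TPM in the CD4SP libraries, against 257, 266 and 232 TPM in the CD8SP libraries (difference of 0.39 in log2, limma adjusted p 0.0458). Other genes that passed the test are named here after their values were seen. S1pr1, the receptor for exit from lymphoid organs, had a log2 difference of 0.90 (limma adjusted p 0.00283), and Ccng2, an atypical cyclin, had 0.94 (limma adjusted p 0.002). The death gene Bcl2l11 (-0.95, limma adjusted p 0.0121) and Pik3ip1, an inhibitor of PI3K (-0.55, limma adjusted p 0.0164), had higher values in CD8SP. After median-of-ratios rescaling Bcl2l11 was called, at -1.24 (limma adjusted p 0.00202).

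In the PI3K, AKT and mTORC1 arm, which keeps FOXO factors out of the nucleus, 15 of 18 tested genes did not pass the test. Of the 18, 2 passed it higher in CD4SP and 1 higher in CD8SP, beside 17.6% and 3.23% of all tested genes. Called was 1 of the 18, beside 9.73% of all tested genes, and the median log2 fold change was 0.21. The call was Pdpk1, the kinase upstream of AKT, at 17.3, 14.6 and 17.1 TPM in the CD4SP libraries, against 10.2, 2.60 and 3.36 TPM in the CD8SP libraries (difference of 1.62 in log2, limma adjusted p 0.0235). After median-of-ratios rescaling it was still past 2-fold, at 1.35, but missed the threshold (limma adjusted p 0.056). The most abundant genes were Ywhab, a 14-3-3 protein that retains FOXO in the cytoplasm (difference of 0.33 in log2, limma adjusted p 0.146), and Pik3cd, the lymphocyte PI3K subunit. Pik3cd was at 136, 115 and 2.04 TPM in the CD4SP libraries, against 147, 145 and 119 TPM in the CD8SP libraries, where the third CD4SP value stands far from all others (limma adjusted p 0.293). Also past the test, and named after their values were seen, were Inpp5d (difference of 0.53 in log2, limma adjusted p 0.0452) and Pik3r5 (-0.71, limma adjusted p 0.00748). After median-of-ratios rescaling Pik3r5 was called, at -1.01 (limma adjusted p 0.00082).

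The CCR4-NOT and poly(A) genes, through which BTG and TOB proteins act, lay close to the rest of the transcriptome, with a median log2 fold change of 0.27 over 16 tested genes beside 0.28 for all. Of these, 2 passed the test, both higher in CD4SP, beside 17.6% of all tested genes. They did not reach 2-fold and were named after their values were seen. These were the deadenylase Cnot6 (difference of 0.81 in log2, limma adjusted p 0.0136) and Cnot10 (0.51, limma adjusted p 0.0405). The poly(A)-binding protein gene Pabpc1 was the most abundant, at 710, 388 and 584 TPM in the CD4SP libraries, against 542, 572 and 445 TPM in the CD8SP libraries (limma adjusted p 0.824). Cnot8, a deadenylase that binds BTG and TOB proteins directly, was at 94.8, 91.8 and 98.6 TPM in the CD4SP libraries, against 76.4, 77.5 and 66.1 TPM in the CD8SP libraries (difference of 0.37 in log2, limma adjusted p 0.064).

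Among 9 BACH2 partners and AP-1 genes, 3 were called, all higher in CD4SP, beside 7.92% of all tested genes called in that direction. The median log2 fold change was 0.85, beside 0.28 for all. Prdm1, which encodes BLIMP1 and is a target that BACH2 represses, was at 13.5, 12.9 and 13.6 TPM in the CD4SP libraries, against 3.67, 3.95 and 3.59 TPM in the CD8SP libraries (difference of 1.59 in log2, limma adjusted p 0.000998). Mafg, a small MAF partner, had a log2 difference of 1.46 (limma adjusted p 0.00244), and Junb, an AP-1 subunit, had 1.12 (limma adjusted p 0.0024). Junb was at 0.81 after median-of-ratios rescaling, under the 2-fold limit. Both Bach2 and its target Prdm1 had their 3 higher values in CD4SP libraries, with Bach2 not past the test.

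Of 7 tested genes of the glucocorticoid response, to which Tsc22d3 belongs, 4 passed the test higher in CD4SP, beside 17.6% of all tested genes. Dusp1, a MAP kinase phosphatase, was called, at 258, 227 and 258 TPM in the CD4SP libraries, against 84.2, 85.4 and 74.0 TPM in the CD8SP libraries (difference of 1.60 in log2, limma adjusted p 0.000101). Ddit4, an inhibitor of mTORC1, was called with a log2 difference of 1.57 (limma adjusted p 0.00678). The receptor gene Nr3c1 (0.85, limma adjusted p 0.00649) and Fkbp5 (0.93, limma adjusted p 0.00702), both named after their values were seen, passed the test without reaching 2-fold. The kinase gene Sgk1 (-0.41, limma adjusted p 0.0958) and Errfi1, an inhibitor of EGF receptor signalling (-0.72, limma adjusted p 0.113), also named after their values were seen, had their 3 higher values in CD8SP libraries without passing the test. After median-of-ratios rescaling both passed it (limma adjusted p 0.00823 and 0.0354), and Errfi1 was called after quantile normalization, at -1.10 (limma adjusted p 0.0199). The median over the 7 was 0.85, beside 0.28 for all genes, whereas Tsc22d3 itself was at 0.34.

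Of 19 tested genes in the list of other quiescence factors, 3 were called higher in CD4SP, beside 7.92% of all tested genes. The test alone was passed by 8, all higher in CD4SP, beside 17.6% of all tested genes, and 4 of the 8 did not pass after median-of-ratios rescaling. These were Klf2 and, named after their values were seen, Klf6, Peli1 and Cdkn2d (limma adjusted p 0.604, 0.14, 0.0939 and 0.548). The calls were Klf4, which restrains proliferation (difference of 1.73 in log2, limma adjusted p 0.00131), Zfp36l1, which destabilises AU-rich mRNA (1.54, limma adjusted p 0.00106), and Runx1 (1.45, limma adjusted p 0.00221). Runx1 is also in the cassette, and the values do not separate endogenous from cassette transcripts. In the list of TCF1 and LEF1 partners 1 of 9 tested genes was called, beside 9.73% of all tested genes in either direction. This was the Wnt feedback gene Axin2, at 8.40, 7.47 and 8.72 TPM in the CD4SP libraries, against 2.49, 3.99 and 2.76 TPM in the CD8SP libraries (difference of 1.19 in log2, limma adjusted p 0.00919). It was at 0.93 after median-of-ratios rescaling, under the 2-fold limit. The most abundant partners were Ctnnb1, which encodes beta-catenin (difference of 0.49 in log2, limma adjusted p 0.113), and Id3 (0.40, limma adjusted p 0.0703).

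**Figure D4:**
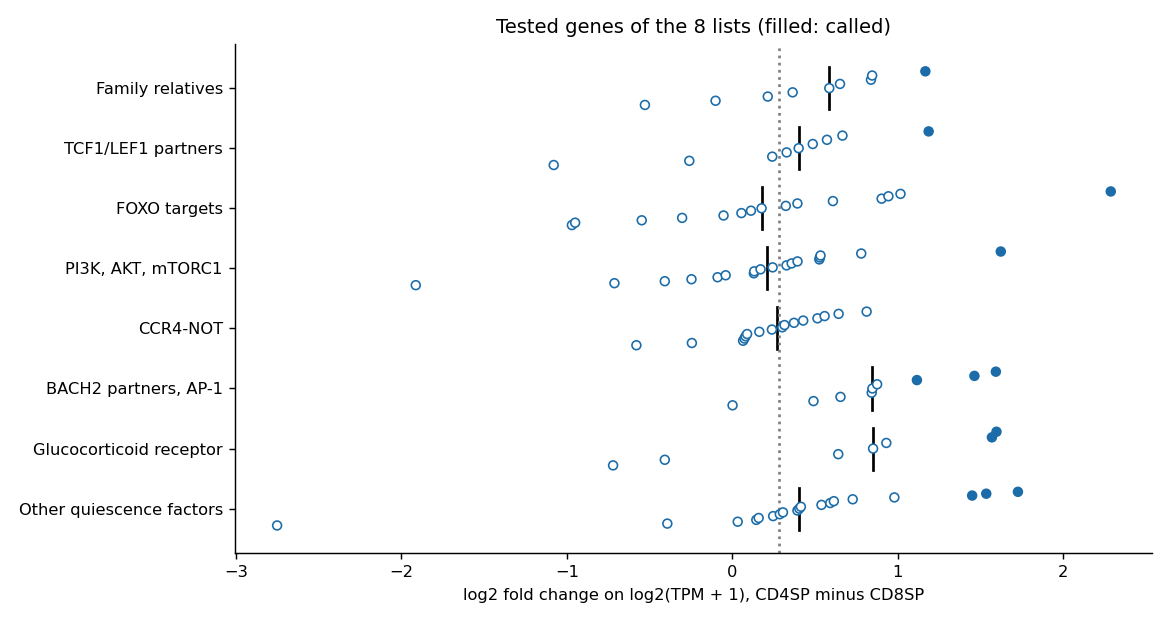
Log2 fold change (x axis, CD4SP minus CD8SP) of each tested gene in 8 lists related to the members (y axis). Filled circles are called genes, black bars are list medians and the dotted line is the median of all tested genes, 0.28. The medians of the BACH2 and AP-1 list and of the glucocorticoid list are both 0.85, and that of the CCR4-NOT list is 0.27.

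For Tob1, the called member, the tested genes outside all lists with the most similar profile over the 6 libraries were sought by the root-mean-square difference of centred log2(TPM + 1). They were Sh3bgrl (difference 0.082, log2 fold change 1.32), Hif1a, which encodes the hypoxia factor (0.104, log2 fold change 1.54), and Galm (0.126, log2 fold change 1.40). The difference between the populations enters this measure, which rests on 6 libraries and carries no test.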

How the data were processed

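The authors amplified cDNA of sorted cells with a whole-transcriptome kit, tagmented it, aligned reads with HISAT2 to mm10 and estimated gene abundance with StringTie, and deposited it as TPM. Annotation, strand use and duplicate removal are not given in the sources used here. TPM keep no depth, so no counting interval was possible and no count test was used.

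TPM were analysed as log2(TPM + 1) with limma 3.58.1 (trend) in R 4.3.3, for genes that reached 1 TPM in 3 or more libraries, with Benjamini-Hochberg adjustment over all 10476. In simulated data for this comparison over 10476 genes, 97% of 100 genes with a log2 change of 3 and 82% of 100 with 1.5 were called. The changed genes were drawn from the more abundant ones and no change under 1.5 was simulated. Power for low genes and for smaller differences was therefore not measured. Ratios were tested by exact permutation. Positions are from GENCODE M21 on GRCm38. Near copies were sought with blastn 2.17.0 (at least 95% identity over at least 200 nt).

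The members and lists were chosen with earlier results of these data known. Named genes were all members, their family relatives, the called genes of each list (up to 4) and, in lists with fewer than 2 calls, the 2 most abundant genes. Genes outside this rule are said in the text to be named after their values were seen. Of the list genes, 3 were matched by an older symbol. The effect of 15 alternatives is given in the closing section. The values of 1 gene of the FOXO target list are not reported here.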

Additional observations from a re-analysis of the deposited data

How the results depend on the processing

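Tob1 was called under all 15 alternatives, and Btg2 passed the test under all 15, Foxo1 under 14 and Btg1 under 13. On the adjusted p alone, 4 members were called in place of 1 (Btg1 at 0.56, Foxo1 at 0.65 and Btg2 at 0.91), 33 related genes in place of 12 and 2183 of all tested genes in place of 1019. With the replicate number as a block (replicate block), 997 genes were called, and the limma adjusted p was 0.00588 for Tob1 (range over all alternatives 0.00474 to 0.0264). The labels do not say whether same-numbered libraries came from the same mouse, and their deviations from the population means had correlations of -0.017 to 0.089, so the numbers were not used to pair them. The block changed no call of a member. The median log2 fold change of the members was 0.37, and became 0.45 with a pseudocount of 0.1 and with a filter of 5 TPM, 0.13 in the median-of-ratios scaling, 0.12 in the quantile scaling and 0.26 with ribosomal protein genes removed. Leaving out 1 library gave 0.35 to 0.47. Foxp1 turned to -0.28 in the median-of-ratios scaling, -0.32 in the quantile scaling and -0.14 with ribosomal protein genes removed, and lay between -0.052 and 0.087 with 1 library left out. Tcf7 turned to -0.011 after median-of-ratios rescaling and Bach2 to -0.00032 after quantile normalization. The median of all genes moved from 0.28 to 0.0013 (median-of-ratios), -0.015 (quantile) and 0.14 (ribosomal protein genes removed). The filter of 5 TPM removed Bach2 from the test. Without a filter on low values 1006 genes were called, and with CD8SP replicates 1 and 2 averaged and counted as 1 sample 823, and each of these settings called Tob1 as the only member. Those 2 libraries had ribosomal shares of 32.6% and 32.2%, against 36.0% in CD8SP replicate 3, and the labels do not say how they are related. With them averaged, the limma adjusted p was 0.0468 for Btg1 and 0.039 for Foxo1. The 5 within-library ratios kept their direction in all 9 settings in which they were computed, although Tcf7 to Lef1 and Foxo1 to Foxo3 overlapped between populations with a pseudocount of 0.1. Rescaling moved the share of all calls higher in CD4SP from 81.5% to 62.1% (median-of-ratios) and 57.1% (quantile). The unknown depth limits what can be said of Foxo3.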
